A study of Mus musculus with 15 samples.

Results

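The genes described here encode the T cell receptor's signalling parts: the 4 CD3 chains Cd3d, Cd3e, Cd3g and Cd247, the receptor constant regions Trac and Trbc2, the kinase Lck, the adaptor Lat, the costimulatory receptor Cd28 and the adhesion receptor Cd2. They are 10 of the 39331 genes in the count table, taken by symbol, and all 10 were found. The genes were chosen by their role and by their CPM in the 4 groups, and Cd247 was set apart from the other chains because its level was high in adult hearts, so values by age are given as a description with no test. The libraries hold messenger RNA of left ventricle tissue, from C57BL/6 mice that all had experimental myocardial infarction. The groups were neonatal hearts that received adult T cells (4 libraries, numbered 1, 2, 4 and 5), neonatal hearts left without them (4 libraries, 6 to 9), adult hearts with adult T cells (4 libraries, 1 to 4) and adult control hearts (3 libraries, 5 to 7). For the neonatal hearts a time of 36 h is given. The time in adult hearts, the age in days, the number of T cells and the way they were given are not stated in the labels, nor whether each library is 1 animal, so p-values measure the spread between these libraries.

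A T cell recognises antigen with a receptor pair, here represented by the constant regions Trac (alpha) and Trbc2 (beta), which cannot signal by itself. The CD3 delta, epsilon and gamma chains and the zeta chain encoded by Cd247 carry the cytoplasmic tyrosine motifs (ITAMs) that Lck phosphorylates, after which the membrane adaptor Lat gathers the downstream enzymes. Cd28 supplies costimulation and Cd2 binds a ligand on the partner cell. Cd247 is also used by natural killer cells, Lat by mast cells and platelets. The samples are whole ventricle, in which fewer cells of a type cannot be told apart from less RNA per cell.

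The libraries held 21871617 to 34302786 counts each. A floor of 3 counts, which covers counting error only, equalled 0.0875 to 0.137 CPM (counts scaled to a common library size). All 6 cardiomyocyte markers were detected and summed to 33100 to 46620 CPM. Neonatal control 8 stood apart from the other neonatal libraries, at 53.0 on the first principal component of the neonatal libraries against -21.1 to 9.60. Without it the neonatal comparison still called 0 genes, and the neonatal differences of the 9 tested genes without it are given below. CPM were computed with edgeR's TMM library factors, and differences are log2 fold changes ± standard error from 1 edgeR fit of 16437 genes over all 15 libraries. Adjusted p is the Benjamini-Hochberg value of the edgeR quasi-likelihood test over all those genes, with a threshold of 0.05. Of the 10 genes 9 had enough counts for that fit, and Cd3e did not.

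The promoter windows of the CD3 chains are shown because Cd247 was counted in another pattern than its 3 partners, whose genes lie side by side on chromosome 9. Each window runs from 250 bases before to 50 bases after the RefSeq start site on GRCm38.p6, written 5′ to 3′ on the gene's strand. For Cd247 the table's gene row starts further upstream, at 165779952, so the window is that of the start site in the RefSeq promoter table and not of the first base of the counted gene. Capitals mark matches to 4 short motifs, each searched on both strands. The core bound by ETS factors was searched as GGAAGT. That of RUNX factors was searched as TGTGGT and that of GATA factors as AGATAA. The element of the estrogen-related receptors was searched as AAGGTCA.
Cd247, chr1:165788431-165788730, plus strand: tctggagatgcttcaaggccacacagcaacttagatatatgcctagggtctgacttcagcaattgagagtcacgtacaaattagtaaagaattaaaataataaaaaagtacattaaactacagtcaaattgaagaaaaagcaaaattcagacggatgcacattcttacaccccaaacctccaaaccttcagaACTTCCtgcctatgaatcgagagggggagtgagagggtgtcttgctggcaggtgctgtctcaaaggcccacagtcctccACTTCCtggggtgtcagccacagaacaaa
Cd3e, chr9:45009562-45009861, minus strand: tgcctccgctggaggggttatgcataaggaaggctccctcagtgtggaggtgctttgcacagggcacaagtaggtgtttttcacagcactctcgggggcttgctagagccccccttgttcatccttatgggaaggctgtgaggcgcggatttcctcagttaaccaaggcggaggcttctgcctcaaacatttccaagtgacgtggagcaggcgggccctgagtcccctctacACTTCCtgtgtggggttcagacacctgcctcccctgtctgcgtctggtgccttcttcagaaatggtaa
Cd3d, chr9:44981536-44981835, plus strand: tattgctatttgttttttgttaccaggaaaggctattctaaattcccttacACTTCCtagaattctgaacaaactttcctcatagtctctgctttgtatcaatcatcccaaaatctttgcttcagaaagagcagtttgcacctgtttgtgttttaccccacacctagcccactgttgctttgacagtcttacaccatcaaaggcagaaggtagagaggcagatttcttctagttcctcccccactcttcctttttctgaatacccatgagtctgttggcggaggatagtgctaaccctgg
Cd3g, chr9:44980382-44980681, minus strand: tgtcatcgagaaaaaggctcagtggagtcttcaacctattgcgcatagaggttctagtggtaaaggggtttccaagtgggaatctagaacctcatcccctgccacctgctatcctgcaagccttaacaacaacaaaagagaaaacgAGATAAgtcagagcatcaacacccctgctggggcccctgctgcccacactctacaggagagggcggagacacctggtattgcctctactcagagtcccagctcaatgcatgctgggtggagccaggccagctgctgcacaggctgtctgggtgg
GGAAGT was matched on the opposite strand, where the printed letters are its reverse complement, at 2 places in the Cd247 window, at 1 place each in the Cd3e and Cd3d windows and at none in the Cd3g window. Of all 32851 windows of this length 23.8% held that motif. The Cd3g window held AGATAA at 1 place, as did 11.2% of all windows. TGTGGT (16.8% of windows) and AAGGTCA (4.72%) were not found in these 4 windows. A match describes letters and is not a bound site. Of the 10 genes 6 had a window in the RefSeq table, the other 2 being Lck and Lat.

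Cd247 was counted at several times the level of the other CD3 chains in adult hearts and stood far lower in neonatal hearts. In adult controls 5, 6 and 7 it measured 3.60, 3.59 and 2.56 CPM, and in adult recipients 1 to 4 it measured 2.69, 2.78, 2.64 and 2.44 CPM. In neonatal controls 6 to 9 it measured 1.06, 0.542, 0.478 and 0.487 CPM, and in neonatal recipients 1, 2, 4 and 5 it measured 0.479, 0.394, 0.548 and 0.521 CPM. Every adult library was above every neonatal one. The means were 3.25 ± 0.601 (SD, n = 3) against 0.643 ± 0.282 CPM (n = 4) in controls, a difference of 5.06-fold, and 2.64 ± 0.142 against 0.486 ± 0.0674 CPM (n = 4 and 4) in recipients, a difference of 5.44-fold. These age values are part of how the genes were chosen and carry no test.

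**Figure D1:**
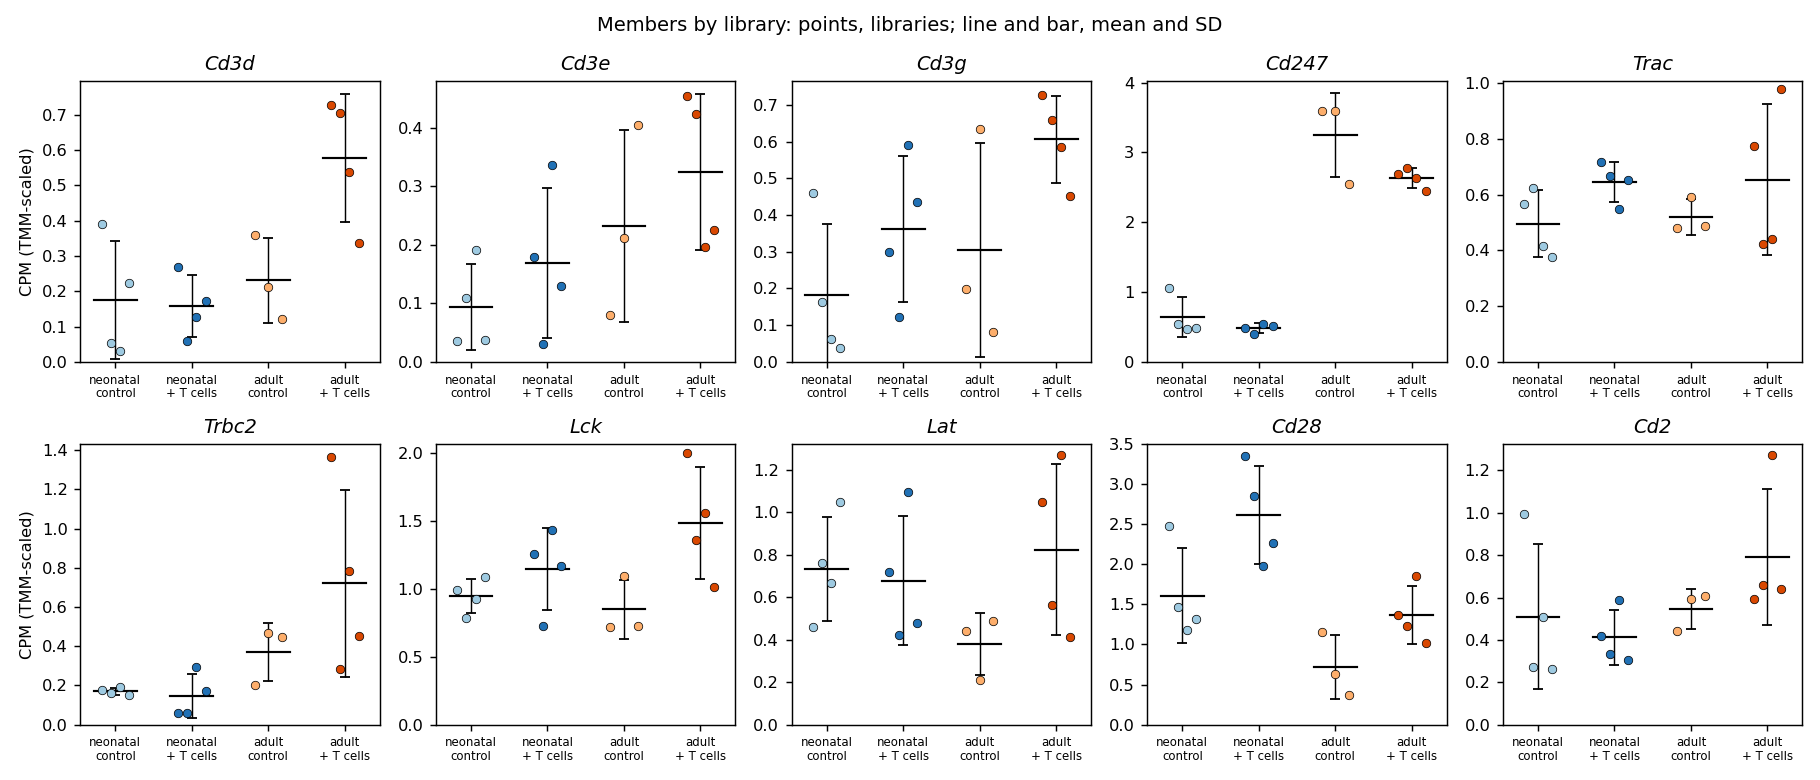
Scaled CPM of the 10 genes (vertical axes, linear, each from 0) in the 15 libraries, by group (horizontal axes), with mean and SD. For Cd247 the 7 adult libraries lie between 2.44 and 3.60 CPM and the 8 neonatal libraries between 0.394 and 1.06 CPM, while for Cd28 the neonatal means are above the adult means of the same treatment.

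The other 3 chains had 1 to 16 counts per library, and each was above 3 counts in all 4 adult recipients. Cd3d, the delta chain, had 9, 5 and 3 counts in adult controls 5, 6 and 7 and 16, 15, 11 and 9 in adult recipients 1 to 4. It had 11, 2, 1 and 6 counts in neonatal controls 6 to 9 and 9, 2, 3 and 4 in neonatal recipients 1, 2, 4 and 5. Adult recipients held 51 Cd3d counts and each other group 17 to 20, and the recipients and controls of each age overlapped. Cd3g, the gamma chain, had 5, 15 and 2 counts in adult controls and 16, 14, 12 and 12 in adult recipients. It had 13, 6.17, 2 and 1 counts in neonatal controls and 10, 4, 14 and 10 in neonatal recipients, so neonatal control 6 stood among the recipients. Cd3e, the epsilon chain that pairs with both delta and gamma, had 2, 5 and 10 counts in adult controls, 10, 9, 4 and 6 in adult recipients, 1, 4, 6 and 1 in neonatal controls and 6, 1, 8 and 3 in neonatal recipients. Its groups overlapped in each comparison.

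Set as a share of the 4 chains' counts, Cd247 took 84.9%, 77.3% and 80.8% in adult controls 5 to 7 and 58.4%, 60.8%, 66.7% and 70.7% in adult recipients 1 to 4. The recipients were all below the controls. The exact (Clopper-Pearson) 95% interval covers counting error only. For adult control 5, the highest share, it was 76.7 to 91.1% of 106 counts. For adult recipient 1, the lowest share in adults, it was 48.2 to 68.1% of 101 counts. The intervals of adult control 6 (68.3 to 84.7%) and adult recipient 4 (60.2 to 79.7%) overlapped. The summed Cd3d, Cd3e and Cd3g level ran from 0.608 to 1.06 CPM in adult controls and from 1.01 to 1.91 CPM in adult recipients, with 15 to 25 counts against 27 to 42. The mean of Cd247 was no higher in recipients. In neonatal hearts Cd247 took 54.6 to 62.5% in controls and 34.2 to 65.0% in recipients, and these ranges overlapped. With only 20 to 55 counts over the 4 chains per neonatal library these shares are imprecise, for instance 40.8 to 84.6% (exact 95% interval) for recipient 2 with 20 counts.

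**Figure D2:**
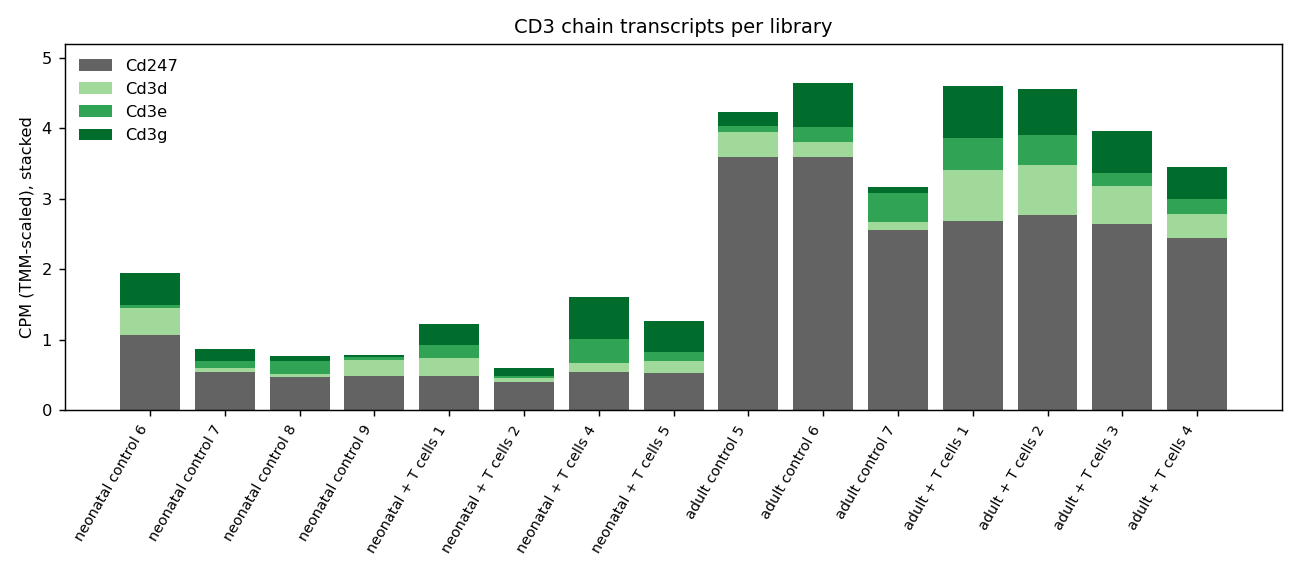
Scaled CPM of the 4 CD3 chains stacked per library (vertical axis from 0, 15 libraries on the horizontal axis, 1 colour per chain). Cd247 forms the larger part of each adult bar, 58.4 to 84.9% of the counts. Adult recipients hold 27 to 42 counts of Cd3d, Cd3e and Cd3g against 15 to 25 in adult controls. In the plotted CPM these sums overlap, with 1.014 to 1.912 in adult recipients and 0.608 to 1.057 in adult controls.

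Cd247 covers 91202 bases of chromosome 1 (GRCm38.p6, 165779952 to 165871153, plus strand), the longest span of the 10 genes, and overlaps other genes. Its last 6004 bases (165865150 to 165871153), which hold 7 of its 23 distinct annotated exons and 4 coding ones, overlap the 3′ part of Pou2f1, a widely expressed POU transcription factor on the minus strand. The noncoding RNA gene Gm32999 lies inside the span on the minus strand and overlaps no exon. The strand setting of the authors' count is not stated. Measured on the table, 8 minus- or plus-strand noncoding genes inside opposite-strand genes above 1000 CPM took 0.000834 to 0.177% of their host's counts. They covered 4.44 to 37.7% of its span. Whether they share exons with their hosts was not checked, so these shares cannot decide the strand rule for the Pou2f1 overlap. Pou2f1 measured 14.7 ± 2.65 CPM in adult controls (n = 3) and 16.3 ± 2.86 in neonatal controls (n = 4), and Gm32999 measured 1.04 ± 0.0629 and 0.897 ± 0.220 CPM. Creg1, the next gene on the plus strand, measured 48.7 ± 3.27 and 45.3 ± 5.97 CPM. In all 3 the neonatal and adult controls overlapped, unlike Cd247. Among recipients Pou2f1 was higher in all neonatal libraries (11.55 to 18.28 CPM) than in all adult ones (8.71 to 11.02 CPM). In that direction 23.8% of all tested genes did not overlap between recipients. Gm32999 and Creg1 overlapped between recipients too. In adult recipients Pou2f1 fell to 9.89 ± 0.982 CPM (n = 4), by 0.57 on the log2 scale (standard error 0.16, adjusted p = 0.0391), a call lost with the transcript length trend removed (-0.28) and without adult control 5 or 6 or recipient 2, 3 or 4.

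**Figure D3:**
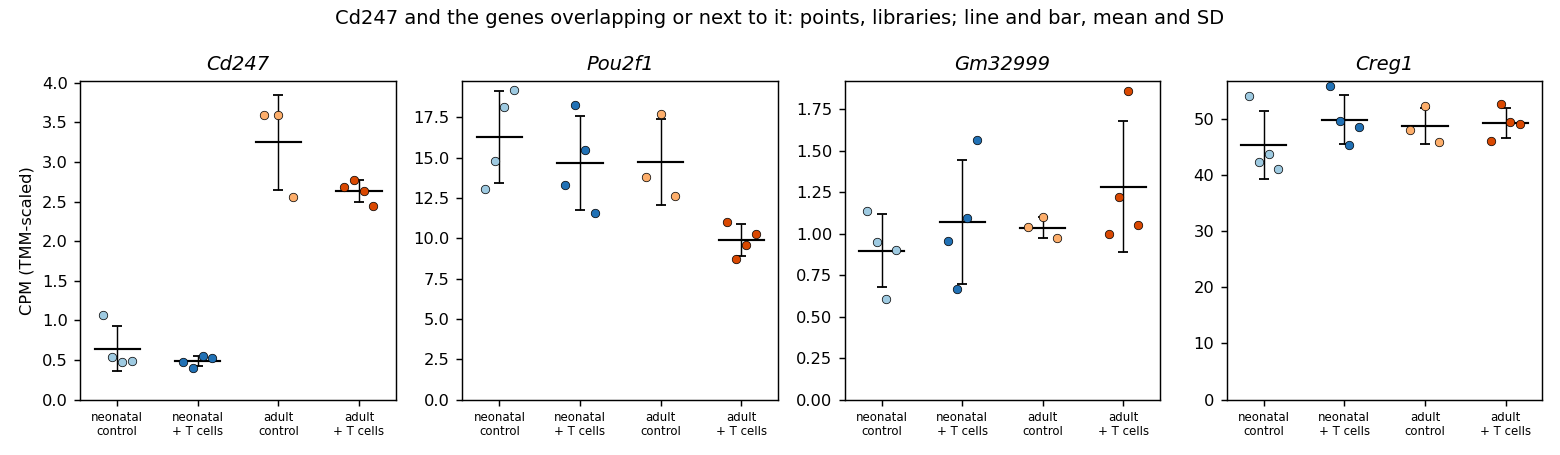
Scaled CPM of Cd247, the overlapping Pou2f1 and Gm32999 and the adjacent Creg1 by group (linear axes from 0, points for libraries, mean and SD). In Cd247 all adult libraries are above all neonatal ones, whereas in the other 3 genes the adult and neonatal controls overlap. Among recipients all neonatal libraries are above all adult ones for Pou2f1, while Gm32999 and Creg1 overlap.

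The tested genes whose log2 CPM ran most nearly parallel to Cd247 over the 15 libraries were Tsc22d1 (Pearson r = 0.966), Klhdc8a, Mdga1, Hcn2 and Asb5 (r = 0.961 each). Hcn2 is a pacemaker channel subunit and measured 39.8 CPM in adult controls against 6.91 in neonatal controls. Klhdc8a measured 39.4 and 4.67 CPM. These are the 5 closest of 429 genes with r above 0.9, and the libraries share the age step, so the likeness is a description. Genes closest to the summed Cd3d, Cd3e and Cd3g level were Clec2d, a ligand of a natural killer receptor (r = 0.905), Tmbim4 (0.887), Fth1, the ferritin heavy chain (0.886), Zmat5 (0.884) and Ly6g5b (0.881). Their levels were highest on average in adult recipients, with Clec2d at 25.9 CPM there, 22 in adult controls, 19.0 in neonatal recipients and 18.7 in neonatal controls.

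The design compared ventricles with and without transferred adult T cells at each age. In neonatal hearts none of the 9 tested genes passed, and 0% of all 16437 genes did. The median of the 9 differences was -0.06 against 0.00 over all genes, with 4 of 9 above 0, where 49.9% of all genes were. By edgeR 1 of the 9, Cd28, had an unadjusted p below 0.05, as had 514 of all genes. DESeq2 and limma voom called 0 of the 9 as well.

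In adult hearts the differences of 8 of the 9 tested genes were above 0, and Cd247 was the exception. Their median was 0.91 against 0.00 over all genes, where 49.7% were above 0. None of the 9 passed, while 8.55% of all genes did (1406 of 16437), 3.53% higher and 5.03% lower. Unadjusted p was below 0.05 for 4 of them, Cd3d, Lck, Lat and Cd28, as for 4491 of all genes. Limma voom called 0 of the 9, and DESeq2 gave these low-count genes no adjusted p. The median standard error was 0.44 for the 9 genes and 0.12 for all genes. No gene of the 10 had recipients and controls that did not overlap, at either age. Among all tested genes 0.627% had neonatal recipients wholly above controls and 0.736% wholly below, and in adults these shares were 13.1% and 12%.

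**Figure D4:**
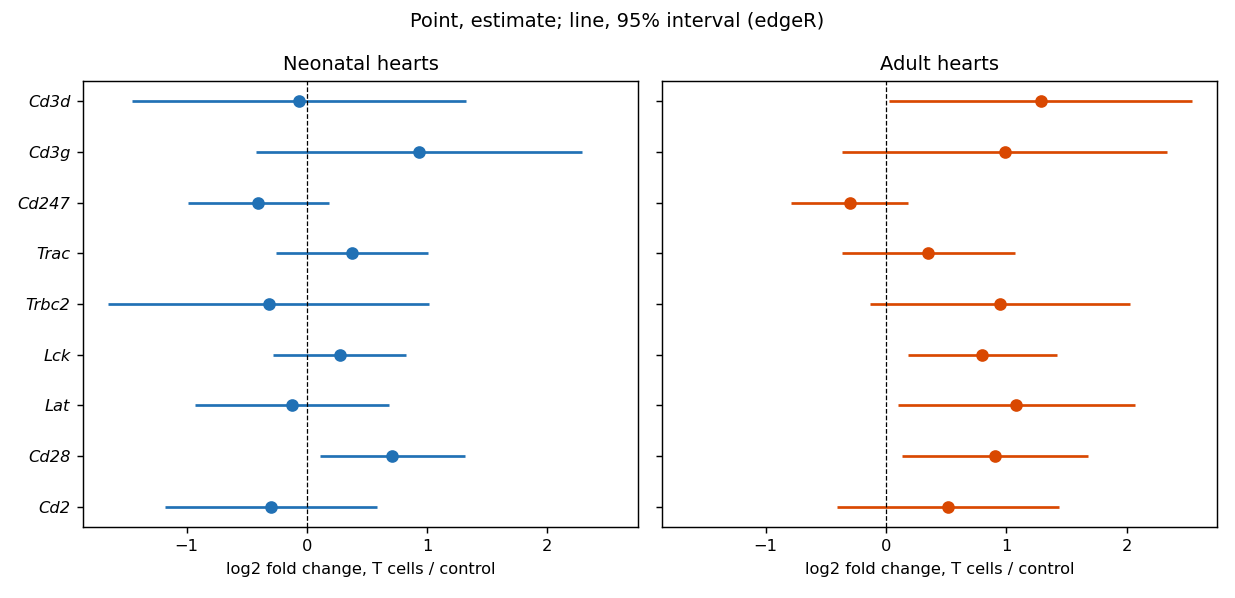
Log2 fold change of recipients over controls (horizontal axis, same scale in both panels) with its 95% interval from edgeR for the 9 tested genes in neonatal (left) and adult hearts (right). Adult points are above 0 for all but Cd247, with intervals that leave 0 for Cd3d, Lck, Lat and Cd28 before adjustment over all genes, and neonatal points lie on both sides.

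By role, the CD3 chains came out unevenly. Cd3d differed in adult hearts by 1.29 ± 0.60 (0.578 ± 0.181 against 0.231 ± 0.120 CPM, n = 4 and 3, adjusted p = 0.174) and in neonatal hearts by -0.06 ± 0.66 (adjusted p = 0.999). Cd3g differed by 0.99 ± 0.64 in adults (adjusted p = 0.341) and 0.93 ± 0.65 in neonates. The adult value was 2.06 without adult control 6 and 0.54 without adult control 7. Cd247 differed by -0.30 ± 0.23 in adults, with a 95% interval from -0.79 to 0.18, and by -0.41 ± 0.28 in neonates, from -0.99 to 0.18. A doubling of Cd247 in recipients, 1 log2 unit, lies outside both intervals, while for Cd3d and Cd3g it lies inside. For Cd3e the CPM were permuted between groups (exact, two-sided), which gave p = 0.457 in adults (0.325 ± 0.133 against 0.232 ± 0.164 CPM, n = 4 and 3) and p = 0.371 in neonates (0.169 ± 0.128 against 0.0931 ± 0.0736 CPM, n = 4 and 4), where the smallest possible p is 0.0286.

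The receptor constant regions gave low and partly fractional counts. Trbc2 had 5, 11 and 11.08 counts in adult controls 5 to 7 and 30.17, 6.5, 16.25 and 12.5 in adult recipients 1 to 4. Recipient 1 held the highest value by far, and the difference of 0.95 ± 0.52 (adjusted p = 0.247) was 0.44 without it. In neonatal hearts Trbc2 had 5.08, 5.75, 5.5 and 4 counts in controls and 2.25, 2.5, 7.25 and 4 in recipients (-0.32 ± 0.64). Trbc2 is nearly identical to Trbc1, so reads may be split between them, and Trbc1 gave a similar picture with 14.67 counts in adult recipient 1 and 3.92 to 8.92 in the other adult recipients. Trac measured 0.480, 0.592 and 0.487 CPM in adult controls, 0.774, 0.424, 0.440 and 0.977 in adult recipients, 0.567, 0.624, 0.414 and 0.375 in neonatal controls and 0.718, 0.667, 0.548 and 0.652 in neonatal recipients. The groups overlapped at both ages, and the differences were 0.35 ± 0.34 in adults (0.08 without adult recipient 4) and 0.38 ± 0.30 in neonates.

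Both constant regions lie inside rows of the table for the whole receptor loci, Tcra and Tcrb, on the same strand, so their reads can be shared with those rows. Tcrb measured 3.17 ± 1.40 CPM in adult recipients and 2.07 ± 0.206 in adult controls (0.61 ± 0.27, adjusted p = 0.156), with recipient 1 at 5.24 CPM and the other recipients at 2.18 to 2.79. Tcra rose in adult recipients by 0.44 ± 0.093 (54.0 ± 4.16 against 39.8 ± 1.04 CPM, adjusted p = 0.0184), a call lost without adult control 5 or 6 or recipient 4 (adjusted p = 0.0637, 0.0843 and 0.0641). In neonatal hearts Tcra measured 53.7 ± 5.45 CPM in controls and 55.7 ± 5.60 in recipients (n = 4 and 4), a difference of 0.05 ± 0.0845. Neonatal controls, which received no T cells, thus had a mean near that of adult recipients. Tcra had no transcript length, so it was not tested in the fit with the transcript length trend removed. The Tcra row held 20756 counts over all libraries, whereas Trac held 37.33 to 74.66 per group.

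Lck, the kinase that starts the signal, measured 0.719, 1.10 and 0.730 CPM in adult controls and 2.0, 1.37, 1.56 and 1.01 in adult recipients. Only recipient 4 fell inside the range of the controls. Its difference was 0.80 ± 0.30 with an adjusted p of 0.0918, the smallest of the 9 genes in adults. In neonatal hearts it was 0.27 ± 0.26, with controls at 0.993, 0.787, 0.923 and 1.09 CPM and recipients at 1.26, 0.727, 1.43 and 1.17. Lat, the adaptor below Lck, measured 0.440, 0.211 and 0.487 CPM in adult controls and 1.05, 0.565, 1.27 and 0.413 in adult recipients, a difference of 1.08 ± 0.47 (adjusted p = 0.143). Recipient 4 was again within the controls. In neonatal hearts Lat measured 0.461, 0.759, 0.669 and 1.05 CPM in controls and 0.718, 0.424, 1.10 and 0.478 in recipients (-0.12 ± 0.39), with wide overlap.

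Cd28 was the only one of the 9 with an unadjusted p below 0.05 at both ages, and neonatal hearts held more of it than adult hearts. It measured 2.48, 1.47, 1.18 and 1.31 CPM in neonatal controls 6 to 9 and 3.35, 2.85, 1.98 and 2.26 in neonatal recipients. Control 6 lay among the recipients, and the difference was 0.71 ± 0.29 (adjusted p = 0.999), or 0.99 without control 6 and 0.58 without control 8. In adult hearts Cd28 measured 1.16, 0.634 and 0.365 CPM in controls and 1.37, 1.22, 1.86 and 1.01 in recipients, a difference of 0.91 ± 0.37 (adjusted p = 0.121), or 1.44 without adult control 5. Cd2 measured 0.440, 0.592 and 0.608 CPM in adult controls and 0.592, 0.659, 1.27 and 0.639 in adult recipients (0.52 ± 0.44), the difference being 0.20 without recipient 3. In neonatal hearts it measured 0.993, 0.271, 0.510 and 0.262 CPM in controls and 0.419, 0.333, 0.590 and 0.304 in recipients (-0.30 ± 0.42, or 0.23 without control 6).

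The T cell effect itself was compared between ages by the difference of both log2 fold changes. None of the 9 genes passed, nor did any of the 16437 genes (0%), and 0 of the 9 had an unadjusted p below 0.05, against 2511 of all genes. Limma voom also called 0 genes, and DESeq2 called 174 genes and gave these 9 no adjusted p. The neonatal minus adult effect was -1.35 ± 0.90 for Cd3d, -1.26 ± 0.83 for Trbc2 and -1.21 ± 0.61 for Lat (adjusted p = 0.352). Without neonatal control 6 the value of Cd3d was -0.59, and without adult recipient 1 that of Trbc2 was -0.75. For Cd28 the difference was -0.20 ± 0.46, with an interval from -1.17 to 0.78.

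Single libraries carried several genes at once. Adult recipient 1 was the highest of its group for 5 of the 10 genes (Cd3d, Cd3e, Cd3g, Trbc2 and Lck), and adult recipient 4 the lowest for 6 (Cd3d, Cd3g, Cd247, Lck, Lat and Cd28). Neonatal recipient 4 was the highest for 7 of the 10, and neonatal recipient 2 the lowest for 6. Among neonatal controls number 6 was the highest for 5 genes (Cd3d, Cd3g, Cd247, Cd28 and Cd2). Without it Cd3d differed by 0.69, Cd3g by 1.84 and Cd247 by -0.07 in neonatal hearts, none past the threshold. Without neonatal control 8 these were -0.42, 0.64 and -0.53, and again none passed. The other differences without control 8 were 0.29 for Trac, -0.27 for Trbc2, 0.25 for Lck, -0.18 for Lat, 0.58 for Cd28 and -0.29 for Cd2, each with the sign it had with that library.

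Per kilobase of the longest annotated transcript, the genes stood in a different order at each age. Whether intronic reads were counted is not given in the sources used here. If they were, a level per kb of transcript is too high for genes with long introns, above all for Cd247 with its span of 91202 bases, and its place among the other genes is uncertain. In neonatal controls Trac was first (0.529 ± 0.128 CPM per kb), followed by Cd2, Lck, Cd28, Lat, Trbc2 and then Cd247 (0.217 ± 0.0954), with Cd3d, Cd3g and Cd3e (0.0365 ± 0.0289) last. The ranges of each neighbouring pair overlapped, also in neonatal recipients, where Trac (0.691 ± 0.0762) was again first and Cd247 (0.164 ± 0.0228) again seventh. In adult controls Cd247 was first at 1.10 ± 0.203 CPM per kb and did not overlap with Trac below it (0.556 ± 0.0672). Trbc2, Cd2 and Lck came next, and Lck (0.389 ± 0.0990) did not overlap with Lat (0.185 ± 0.0717). Cd28, Cd3d, Cd3g and Cd3e (0.0911 ± 0.0642) followed with overlapping ranges. In adult recipients Trbc2 (1.04 ± 0.690) and Cd247 (0.892 ± 0.0479) led, Cd3e (0.127 ± 0.0523) was last, and each neighbouring pair overlapped.

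**Figure D5:**
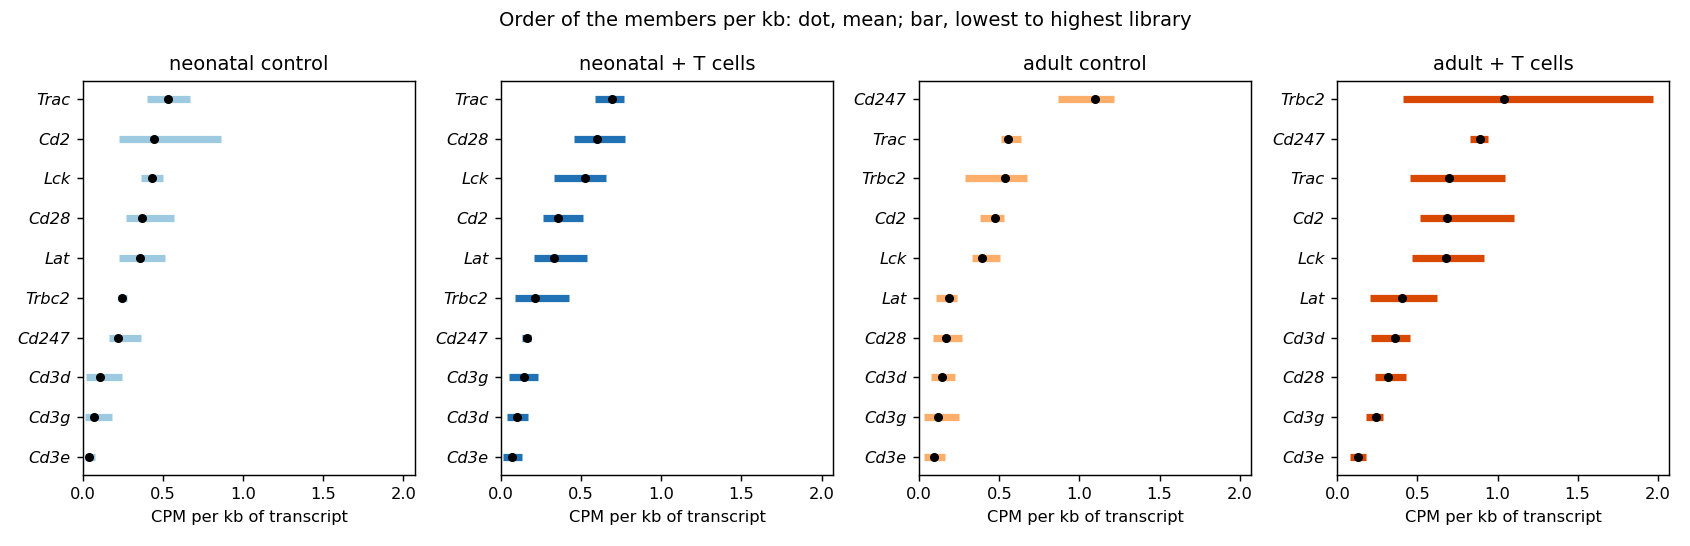
CPM per kb of the longest annotated transcript (horizontal axes, linear, common scale) for the 10 genes ordered by mean in each group, the dot being the mean and the bar the range over libraries. Cd247 is seventh in both neonatal groups and first in adult controls, where its range of 0.864 to 1.22 does not reach that of Trac, although its level per kb is uncertain if intronic reads were counted.

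The age values of the other genes are likewise a description. In controls Cd28 was higher in all neonatal libraries than in all adult ones (2.22-fold by the fit). Cd247 and Trbc2 (2.13-fold) were higher in all adult ones. For Trbc2 the gap was narrow, with 0.1998 CPM in adult control 5 and 0.1911 in neonatal control 8. Without rounding and the TMM factors adult control 5 measured 0.1881 CPM and neonatal control 6 measured 0.1904, so the Trbc2 ranges then overlapped. In recipients Cd28 (1.94-fold) was higher in all neonatal libraries. Cd3d (3.53-fold), Cd247 and Cd2 (1.91-fold) were higher in all adult ones, while Trbc2 (5.12-fold higher in adults) overlapped. For Cd2 the gap was narrow, with 0.5904 CPM in neonatal recipient 4 and 0.5918 in adult recipient 1. Without the TMM factors these libraries measured 0.6401 and 0.5628 CPM, so the Cd2 ranges then overlapped. Among all tested genes 16.9% and 17.7% did not overlap in these directions in controls, and 23.8% and 21.6% in recipients. Trac differed by -0.06 ± 0.34 between neonatal and adult controls and by -0.03 ± 0.30 between recipients. Neonatal and adult comparisons share their libraries with the T cell comparisons, so they are not independent of them.

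Of 60 further genes of the pathway in 7 lists, 57 were in the table and 43 were tested. In neonatal hearts none passed, with a median of 0.14 and 30 of 43 above 0, where 49.9% of all genes were. An unadjusted p below 0.05 by edgeR was found for 5 of the 43 and for 514 of all 16437 genes. In adult hearts 2 of 43 rose and 2 fell, near the shares over all genes (3.53% and 5.03%). The median was -0.12 and 14 of 43 were above 0, where 49.7% of all genes were. An unadjusted p below 0.05 by edgeR was found for 9 of the 43 and for 4491 of all genes. The coreceptor Cd4, which brings Lck to the receptor, rose in adult recipients to 1.57 ± 0.371 from 0.751 ± 0.0986 CPM (n = 4 and 3), by 1.05 ± 0.31 (adjusted p = 0.0443). It passed in none of the fits with 1 adult library left out (adjusted p = 0.0671 to 0.118), and its difference stayed between 0.94 and 1.21. In neonatal hearts it differed by 0.03 ± 0.28. The other coreceptor chains were too low for the fit: Cd8a had 5 to 13 counts in adult recipients and 4 to 5 in adult controls, and Cd8b1 6 to 14 and 2 to 6. In neonatal hearts Cd8a had 2 to 6 counts in recipients and 1 to 5 in controls.

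Among the adaptors and downstream genes of those lists, most members are made by many cell types. The adaptor Fyb rose in adult recipients (144 ± 9.07 against 118 ± 6.02 CPM, 0.29 ± 0.082, adjusted p = 0.0407). The Ras exchange factor Sos1 fell by 0.55 on the log2 scale (standard error 0.10, adjusted p = 0.0180), and Malt1, a protease scaffold below the receptor, fell by 0.49 (standard error 0.13, adjusted p = 0.0279). With the trend over transcript length removed from each library none of Cd4, Fyb, Sos1 and Malt1 passed (adjusted p = 0.0897 for Cd4, 0.112 for Fyb, 0.0687 for Sos1 and 0.153 for Malt1). None of them passed without adult control 5, adult control 6 or adult recipient 4. Fyb also missed the threshold without adult control 7 or recipient 1 or 2, and Malt1 without recipient 1. None of the costimulatory genes, kinases near Lck or negative regulators passed at either age. The negative regulator with the smallest p in adults was Ptpn22, a phosphatase that acts on Lck, at 0.523 ± 0.239 against 1.17 ± 0.165 CPM (-1.18 ± 0.41, adjusted p = 0.0753). In neonatal hearts the costimulatory list was led by Cd48, the ligand of Cd2 in mice, at 13.2 ± 2.32 against 7.65 ± 4.88 CPM (0.79 ± 0.35, adjusted p = 0.999).

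Markers of other cells that use these genes were measured beside them. Natural killer and cytotoxic genes (10 genes, none at 0 in all libraries of a group) summed to 0.680 to 1.02 CPM in adult controls and 0.471 to 2.49 in adult recipients, and to 0.974 to 2.27 and 1.49 to 3.08 CPM in neonatal controls and recipients. Ncr1, a defining natural killer receptor, measured 0.0705 ± 0.122 CPM in adult controls (n = 3) and 0.0860 ± 0.0762 in neonatal controls (n = 4). Both means were under the floor, but single libraries ran from 0 to 5 counts in each of these groups. Klrb1c, another natural killer receptor, measured 0.108 ± 0.0608 CPM in adult controls and 0.430 ± 0.110 in neonatal controls, higher in the neonatal ones. Mast cell and platelet markers (9 genes) summed to 33.8 to 38.6 CPM in adult controls and 33.8 to 37.2 in adult recipients. Macrophage and monocyte markers (7 genes) summed to 115 to 160 CPM in adult controls and 107 to 156 in recipients, but in neonatal hearts to 132 to 460 and 406 to 610. Their part in the neonatal Cd28 difference was not tested. Cardiomyocyte markers (6 genes) summed to 33100 to 37840 CPM in adult controls and 42250 to 46620 in adult recipients, with 1 of the 6 called higher (Actc1, adjusted p = 0.0390) and 1 called lower (Ttn, adjusted p = 0.0422). Both calls were lost with any 1 adult library left out (adjusted p = 0.0530 to 0.152 for Actc1 and 0.0633 to 0.123 for Ttn) and with the length trend removed (0.147 and 0.130), and that of Ttn also with no filter on low counts (0.0631).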

How the data were processed

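Per the submitters' processing notes, bcl2fastq 2.20.0.422, cutadapt 2.5, STAR 2.7.2b, featureCounts 1.6.4 and DESeq2 1.24.0 were used with GRCm38.p6, and libraries were made with a stranded oligo-dT kit per the labels. The authors deposited 1 table of unscaled expected counts per gene, with reads split into fractions (61.1% of non-zero values whole). The length column equals the genomic span in 100% of rows, so the counted feature may include introns, and the strand rule is not given in the sources used here.

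Counts were rounded, filtered with filterByExpr (minimum count 10, total 15) and fitted in edgeR 4.0.16 (R 4.3.3) with 1 coefficient per group and robust quasi-likelihood. The standard error of a difference is its absolute value over the root of its F statistic. Log2 CPM for likeness used a prior count of 1. Alternatives were DESeq2 1.42.0, limma 3.58.1 voom, median-of-ratios scaling, no filter, removal of a transcript length trend (spline, 5 degrees of freedom), a replicate block and leaving out each library. The fit was tested on simulated data. Transcript lengths are the longest per symbol in GENCODE M21, and promoters are RefSeq's. The genes and lists were chosen with earlier results of these data known. All 10 genes are named, plus in each list the genes past the threshold or that with the smallest p where a result turns on it, the 5 closest genes by correlation, leaving out predicted ones, and genes overlapping a member. Replicate numbers serve here only to name libraries, and whether they also pair libraries could not be decided. Cd3e was tested exactly.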

Additional observations from a re-analysis of the deposited data

Results flagged for a closer look

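Of 30 sets of 4 libraries checked (10 genes in 3 groups), 2 had a library far from the others by Dixon's criterion at 95%, and chance flags about 1 in 20. Cd247 measured 1.06 CPM in neonatal control 6, where the other neonatal controls measured 0.478 to 0.542 CPM. Cd2 measured 1.27 CPM in adult recipient 3, where the other adult recipients measured 0.592 to 0.659 CPM.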

How the results depend on the processing

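The count of called genes among the 9 tested was 0 for the T cell comparisons and their difference under each setting that gave a value, leave-one-out fits included (0 to 0). Over all genes, the adult comparison called 1406, 2324 with DESeq2, 0 with the transcript length trend removed and 0 to 1230 with 1 library left out. The counts were 0 without adult controls 5 or 6 or recipient 4, and 464 without recipient 2. The neonatal count was 0, and 0 to 9 with 1 library left out (9 without control 6). The difference between ages called 0 genes, 174 with DESeq2 and 0 to 0 with 1 library left out. Controls by age gave 5084 genes, or 3588 to 5523, and recipients 8339, or 7429 to 8078. The sign of the adult effect was kept in all 10 settings for each of the 9 genes, and in neonatal hearts Cd3d kept it in 8 of 12, Lat in 10 and Cd2 in 11. With the length trend removed, adult differences were 1.17 for Cd3d, 0.79 for Trbc2, 0.19 for Trac and -0.32 for Cd247. Replicate numbers 1, 2 and 4 are shared by the recipients and 6 and 7 by the controls. Deviations of same-numbered libraries correlated at 0.072, 0.111 and -0.071 in recipients, and at -0.061 and 0.31 in controls. The highest values between differently numbered libraries were 0.132 in recipients (neonatal 1 with adult 4) and 0.228 in controls (neonatal 8 with adult 6). So few correlations cannot decide whether the numbers pair libraries. With the replicate block 7276 genes were called between recipients (7330 in the same libraries without it, a setting added after seeing the data) and 3927 between controls (3021 without it). Where counts moved, the cause was not tested beyond fewer libraries. Depth limits Cd3d, Cd3e and Cd3g, with 1 to 16 counts per library, and Trbc2, with 2.25 to 30.17.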

Other observations

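Foxp3, the transcription factor of regulatory T cells, had 2 to 7 counts in adult recipients, 0 to 1.5 in adult controls and 0 to 3 in both neonatal groups, all near the floor of 3 counts. Among other low genes, Ifng and Gzma had higher means in neonatal recipients than in neonatal controls. Klrb1c (0.322 against 0.430 CPM) and Ncr1 (0.0593 against 0.0860 CPM) had lower ones. Ifng had 0 to 15 counts in neonatal recipients, 0 to 1 in neonatal controls, 0 to 3 in adult recipients and 0 in adult controls. The cytotoxic gene Gzma differed by 1.94 ± 0.61 in neonatal hearts (adjusted p = 0.999) and by 1.10 ± 0.76 in adult hearts (adjusted p = 0.377). Fcer1g, an ITAM adaptor that can pair with the zeta chain in natural killer cells and is abundant in myeloid cells, measured 11.7 ± 2.77 CPM in adult controls (n = 3) and 32.9 ± 18.6 in neonatal controls (n = 4). The order of these means by age was opposite to that of Cd247, but the controls overlapped (10.07 to 14.88 against 13.56 to 58.29 CPM).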
